A study of Mus musculus with 21 samples.

Results

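The B cell genes Vpreb1, Vpreb3, Cd79a, Cd79b, Cd22, Blnk, Pax5 and Ebf1 were followed through 7 fractions sorted from C57BL/6 mouse bone marrow. The genes were chosen for their level in the Ter119 fraction, so every Ter119 value of these genes is a description. They are 8 of the 18213 genes named on the arrays, with 10 of the 41174 probes, and each gene is represented by its brightest probe. KLS cells, the multipotent progenitors, were sorted as lin- ckit+ sca1+. PreMegE, CFUe, PreGM and GMP carry the same lin- ckit+ sca1+ entry in the labels, with CD150+ CD105- and Fc gamma receptor negative for PreMegE, CD150- CD105- and receptor negative for both CFUe and PreGM, and CD150- and receptor positive for GMP. The label entries therefore do not separate CFUe from PreGM. Ter119 cells were CD71+ Ter119+, and Mac1Gr1 cells were Mac1+ Gr1+. Each fraction had 3 arrays, 21 in all. The lin cocktail named B220, CD3, CD4, CD8, CD41, Mac1, Gr1 and Ter119, and no lin depletion is given for the Ter119 or Mac1Gr1 fractions. No treatment, age or sex is stated, and nothing says whether the 3 samples of a fraction came from separate animals, so p-values measure the spread between these samples, which may be technical.

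A developing B cell is committed by the transcription factors Ebf1 and Pax5, which switch on the parts of the pre-B cell receptor. In that receptor the surrogate light chain, to which VpreB1 belongs, pairs with the immunoglobulin heavy chain, and the Cd79a and Cd79b proteins carry the signal into the cell. Blnk is the adaptor that links the receptor's kinases to downstream enzymes, and Cd22 is a receptor that dampens the signal. Bone marrow is where these cells arise in the adult mouse.

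To show which letters known for B lineage factors stand before these genes, the bases before some start sites are printed. RefSeq promoter windows on GRCm38.p6 were found for 7 of the 8 genes, in 8 windows; Cd79b was not among them. The array files name a different build, mm9, and their positions were not used. The 4 stretches below are the 150 bases before the start of Vpreb3 (chr10:75948150-75948299, plus strand), Blnk (chr19:40994222-40994371, minus strand), Cd79a (chr7:24897347-24897496, plus strand) and Cd22 (chr7:30879029-30879178, minus strand), 5′ to 3′. They are shown as examples of the octamer, ETS and EBF matches described after them. Capitals mark the octamer in Vpreb3 and Blnk, the ETS match in Cd79a and the EBF match in Cd22, and no other motif is capitalised.
Vpreb3: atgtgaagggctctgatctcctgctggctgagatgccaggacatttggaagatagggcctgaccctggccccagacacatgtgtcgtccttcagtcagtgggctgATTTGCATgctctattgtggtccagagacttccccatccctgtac
Blnk: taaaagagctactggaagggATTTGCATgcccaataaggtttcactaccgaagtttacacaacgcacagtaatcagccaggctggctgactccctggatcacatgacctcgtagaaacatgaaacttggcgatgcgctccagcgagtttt
Cd79a: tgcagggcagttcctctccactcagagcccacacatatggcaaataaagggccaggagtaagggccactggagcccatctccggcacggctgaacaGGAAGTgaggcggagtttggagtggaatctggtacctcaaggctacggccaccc
Cd22: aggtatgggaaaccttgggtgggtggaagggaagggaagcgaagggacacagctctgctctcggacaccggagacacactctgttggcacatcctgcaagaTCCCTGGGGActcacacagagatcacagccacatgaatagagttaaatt
Motifs were searched on both strands of the 250 bases before each start and were picked after these sequences had been seen. The octamer ATTTGCAT, which Oct factors bind, was in 2 of the 7 genes and in 1.6% of 32851 promoters. TCCCNNGGGA, the palindrome that Ebf1 binds, was in 1 gene and in 0.779% of promoters. GGAAGT, an ETS core, was in 4 genes and 19.7% of promoters, and the E box CAGNTG in 5 genes and 44.8% of promoters. A match is a description of the letters.

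Levels are given on the log2 scale, as the processed signal relative to the 75th percentile of its array, so 0 is that percentile. A probe is called well above background where the scanner software's flag says so. The filter kept a probe where some fraction had 3 of 3 arrays flagged well above background, and all 8 genes passed it. Vpreb1, Vpreb3, Cd79a, Cd79b and Blnk did so in all 7 fractions, Cd22 in 4, Ebf1 in 3 and Pax5 only in Ter119. Levels of different genes come from different probes and are not compared with each other.

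Some arrays stood apart from the other 2 of their fraction. On CFUe replicate 3, 1411 of the 29527 tested probes (4.78%) were at least 2-fold above both other CFUe arrays, among them 9 of 11 granulocytic genes and 3 of the 8 B cell genes. GMP replicate 3 had 8.48% of probes above both others, with 2 of the 8 B cell genes, and PreGM replicate 3 had 1.48% of probes above both others and 3.45% below both, with 7 of 11 granulocytic genes and 1 B cell gene above. The 75th percentile itself, in log2 signal, was 7.61 to 8.19 on the Ter119 arrays and 8.43 to 9.98 on all others.

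By mean level on this scale, every one of the 8 genes was highest in Ter119 and next highest in Mac1Gr1. With spike-in scaling, Mac1Gr1 minus GMP was -0.69 for both Cd79b and Pax5, so their second place depends on the scaling. All 3 Ter119 arrays lay above all arrays of each other fraction for 8 of 8 genes, as the choice of genes would give, and for 11.5% of all tested probes. The order below those fractions differed from gene to gene. Vpreb3, which encodes a protein of the pre-B cell stage, had levels of 6.13, 6.68 and 6.12 in Ter119 and 3.49, 4.17 and 4.30 in Mac1Gr1. In KLS it was -0.36, -0.81 and 0.12, and its means in the other progenitor fractions ran from -2.75 in GMP to -1.41 in CFUe. Vpreb3 thus had a gap of 4.34 between Mac1Gr1 and KLS, with no overlap of arrays, whereas neighbouring fractions from KLS to PreMegE overlapped. Vpreb1, the surrogate light chain gene, was at 3.62, 4.29 and 3.76 in Ter119, and at 0.80, 1.59 and 1.59 in Mac1Gr1. Its KLS arrays, 0.54, 0.17 and 0.90, overlapped the Mac1Gr1 arrays.

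**Figure D1:**
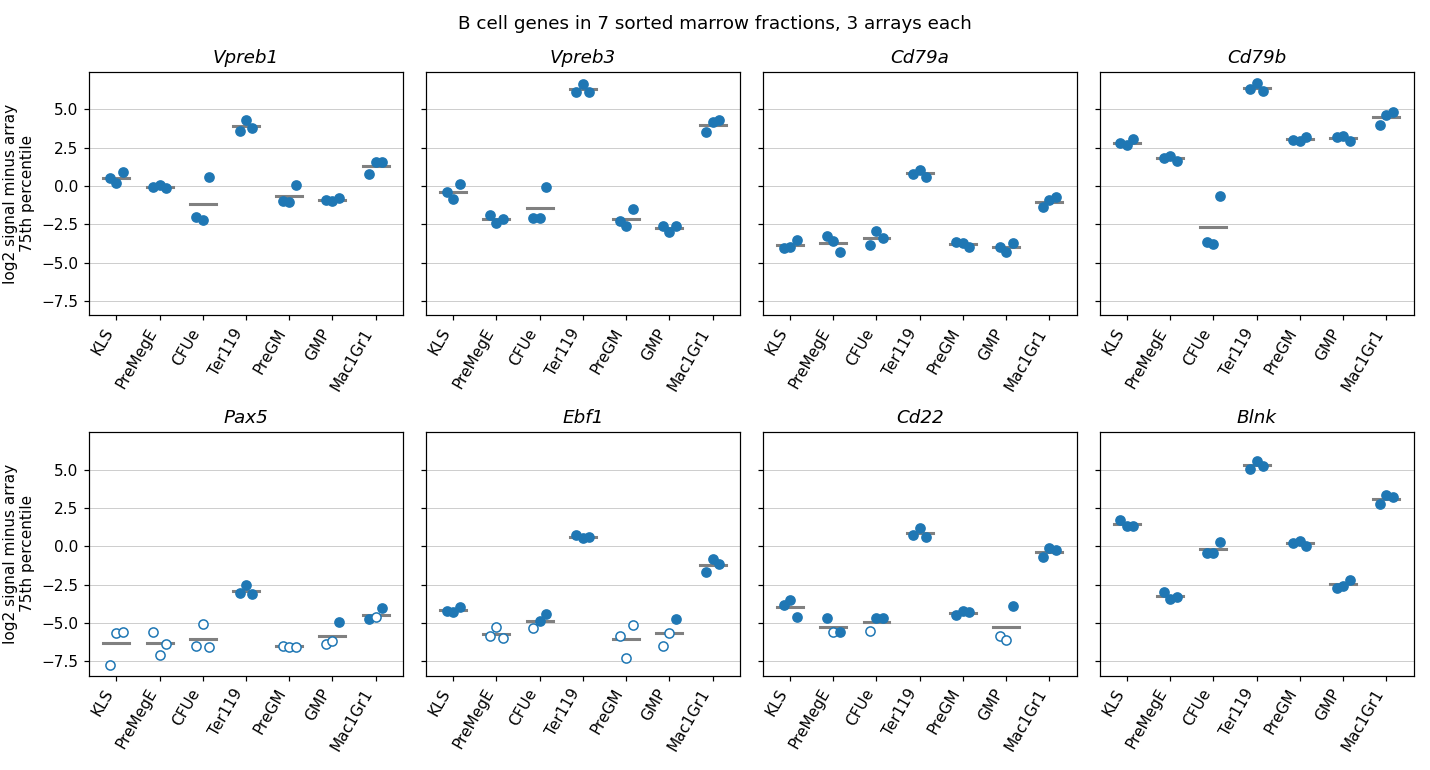
Log2 level relative to the array's 75th percentile (y axis) in the 7 fractions (x axis), with 1 panel per gene. Points are the 3 arrays, filled where well above background, and the grey bar is their mean. By mean on this scale Ter119 is highest and Mac1Gr1 second in all 8 panels, and the third CFUe array lies apart for Vpreb1, Vpreb3 and Cd79b. With spike-in scaling (not drawn) Mac1Gr1 was below GMP for Cd79b and Pax5.

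The receptor's signalling pair behaved differently below Ter119. Cd79a was at 0.82, 1.08 and 0.59 in Ter119 and at -1.37, -0.93 and -0.72 in Mac1Gr1, and its means in the 5 progenitor fractions lay between -4.00 and -3.39. Those 5 fractions overlapped with their neighbours in the order of means. Cd79b was at 6.35, 6.72 and 6.19 in Ter119 and at 4.01, 4.61 and 4.81 in Mac1Gr1. It kept a level of 2.84 ± 0.20 (SD, n = 3) in KLS, 3.05 ± 0.12 in PreGM and 3.14 ± 0.15 in GMP, which overlapped. PreMegE was lower at 1.81 ± 0.17, and CFUe was lowest at -3.64, -3.79 and -0.63.

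Blnk also had an order of its own. Its arrays were at 5.02, 5.58 and 5.26 in Ter119, 2.75, 3.32 and 3.21 in Mac1Gr1, and had a mean of 1.45 ± 0.22 (SD, n = 3) in KLS, with no overlap between these fractions. PreGM, at 0.19 ± 0.18 (SD, n = 3), and CFUe, at -0.19 ± 0.42, overlapped. GMP, at -2.47 ± 0.26, and PreMegE, at -3.25 ± 0.23, lay below them and did not overlap with each other.

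The inhibitory receptor gene Cd22 was at 0.74, 1.19 and 0.60 in Ter119 and at -0.68, -0.10 and -0.25 in Mac1Gr1. Its progenitor means lay between -5.27 and -3.97, with 1 of 3 GMP arrays well above background. Ebf1 was at 0.73, 0.55 and 0.61 in Ter119, at -1.68, -0.83 and -1.18 in Mac1Gr1 and at -4.24, -4.28 and -3.97 in KLS. No PreMegE or PreGM array was well above background for Ebf1, which put Ter119 at least 71.2-fold above PreMegE and at least 59.6-fold above PreGM. Such a bound takes, for each dim array, the higher of its own value and the lowest signal well above background on that array. Pax5 was at -3.04, -2.51 and -3.10 in Ter119, and at -4.76, -4.61 and -4.04 in Mac1Gr1, where 2 of 3 arrays were well above background. In KLS, PreMegE, CFUe and PreGM no array was well above background, and Ter119 was at least 5.85-fold above KLS and at least 3.95-fold above CFUe.

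Over the 8 genes, the difference between Ter119 and CFUe had a median of 5.50, ran from 4.22 for Cd79a to 9.11 for Cd79b among the 7 genes above background on 2 or 3 CFUe arrays, and was at least 1.98 for Pax5, which was above it on none. Against Mac1Gr1 the differences were closer together, with a median of 1.90, a range of 1.19 for Cd22 to 2.56 for Vpreb1 and an SD over genes of 0.43. With scaling to spike-in controls the medians were 4.11 and 1.18. In sorted bulk RNA, fewer cells of a type and less RNA per cell cannot be told apart.

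The arrays of 1 fraction also differed in a shared direction. Ter119 replicate 2 was the highest Ter119 array for 7 of 8 genes, with a median deviation of 0.32 from the fraction mean, and Ebf1 was the exception. Mac1Gr1 replicate 1 was the lowest Mac1Gr1 array for all 8, with deviations from -0.53 to -0.29. CFUe replicate 3 was the highest CFUe array for 6 genes, and Cd79a and Pax5 were highest on replicate 2. Over the 21 arrays, each gene's correlation with the mean of the other 7 ran from 0.66 for Cd79b to 0.98 for Vpreb3, a description over arrays that share fractions.

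**Figure D2:**
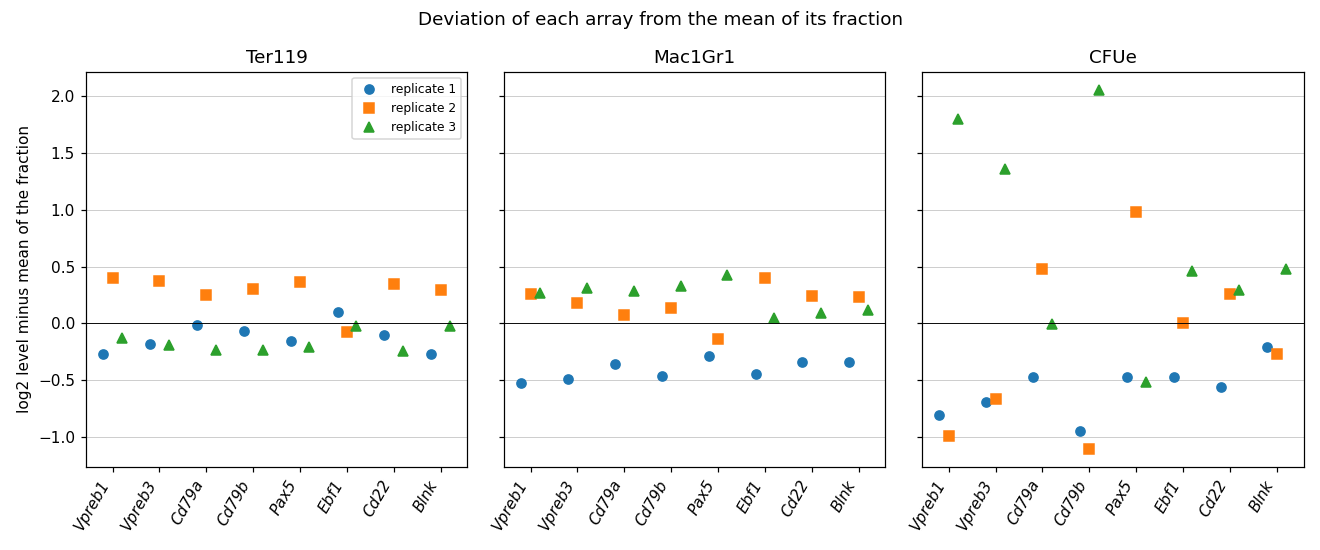
Deviation of each array's log2 level from the mean of its fraction (y axis) for the 8 genes (x axis) in Ter119, Mac1Gr1 and CFUe. Symbols and colours are the 3 replicates. Replicate 2 of Ter119 lies above 0 for 7 genes, replicate 1 of Mac1Gr1 below 0 for all 8, and replicate 3 of CFUe reaches 2.06 for Cd79b.

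Comparisons that leave out Ter119 were tested with limma over all 29527 probes, and a gene was called at an adjusted p under 0.05 with at least a 2-fold change. The step from KLS to PreMegE, the first on the erythroid side, called 4 of the 8 genes lower and none higher, where 12.4% of all probes were called either way, 3.55% higher and 8.86% lower. The median difference was -1.16 over the 8 genes and 0.13 over all probes. Blnk fell from 1.45 ± 0.22 to -3.25 ± 0.23 (SD, n = 3 each), a difference of -4.70 ± 0.22 (SE) with an adjusted p of 1.34e-10. Vpreb3 changed by -1.80 ± 0.44 (adjusted p 0.00541), Ebf1 by -1.55 ± 0.46 (adjusted p 0.0192) and Cd22 by -1.30 ± 0.45 (adjusted p 0.0434). For Ebf1, KLS was at least 2.56-fold above PreMegE. Cd79b, with a difference of -1.03 ± 0.54, did not pass (adjusted p 0.183), though the arrays of the 2 fractions did not overlap. Cd79b was called lower in a fit of only the 2 fractions (adjusted p 0.00482). Normexp background (adjusted p 0.0359) and spike-in scaling (-1.49, adjusted p 0.0251) called it too. In a fit blocked on slide, only Blnk was called, and with the replicate number as a block Cd22 was not (adjusted p 0.0569). Ebf1 was not called with quantile normalization (adjusted p 0.0607), the series table (adjusted p 0.0668) or normexp background (-0.26, adjusted p 0.253). Cd22 was not called with dim probes kept (adjusted p 0.0648) or normexp background (-0.34, adjusted p 0.190). Leaving out KLS replicate 3 or PreMegE replicate 1 or 3 also lost Ebf1. Leaving out KLS replicate 1 or 2, or PreMegE replicate 2 or 3, lost Cd22. KLS and PreMegE shared no slide.

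Of 48 other B lineage genes tested in that step, 20 were lower in PreMegE, none was called higher and 28 did not pass. The lower ones held all 7 tested early lymphoid genes, with Dntt, which adds bases to rearranging receptor genes, at -7.33 ± 0.39 and the cytokine receptor gene Flt3 at -4.86 ± 0.26. Rag1, Il7r and Bst1 were well above background on no PreMegE array, and Rag1 and Bst1 on only 2 of 3 KLS arrays. Rag1 and Bst1 passed the filter only through Ter119 and Mac1Gr1, so their calls are limited by dim probes. The macrophage list also fell, in 10 of 10 genes. Its summed level was 4.78 to 6.26 in KLS and -0.48 to 0.54 in PreMegE, and its part in the B cell values was not tested.

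On the myeloid side, PreGM against KLS called 3 of the 8 genes, all lower, with 8.63% of probes called either way, 2.11% higher and 6.52% lower. The median difference was -0.76, against 0.06 over all probes. Vpreb3 changed by -1.78 ± 0.44 (adjusted p 0.00716), Ebf1 by -1.89 ± 0.46 (adjusted p 0.00644) and Blnk by -1.26 ± 0.22 (adjusted p 6.26e-04). KLS was at least 2.14-fold above PreGM for Ebf1. With normexp background Ebf1 was at -0.27 and not called (adjusted p 0.248). A fit of only the 2 fractions did not call Ebf1 either (adjusted p 0.0512). In a fit blocked on slide none of the 3 was called, with the adjusted p then from 0.0940 for Blnk to 0.188 for Vpreb3, and the 2 fractions shared no slide. Without CFUe replicate 3 and PreGM replicate 3, Vpreb1 was called as well, at -1.52 (adjusted p 4.68e-04) in place of -1.17. The macrophage list was lower in 9 of 10 genes and higher in 1, with a summed level of 2.75 to 2.93 in PreGM, the granulocytic list was higher in 4 of 11 and the T cell list lower in 3 of 10. Their part in these values was not tested.

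The next steps separated Cd79b and Blnk. From PreMegE to CFUe, where 24.7% of probes were called, 9.96% higher and 14.7% lower, Cd79b fell by 4.50 ± 0.54 (adjusted p 2.71e-06) and Blnk rose by 3.05 ± 0.22 (adjusted p 9.04e-09), and the other 6 genes did not pass. The median difference was 0.32, against 0.12 over all probes. From PreGM to GMP, where 10.4% were called, 4.01% higher and 6.36% lower, Blnk fell by 2.67 ± 0.22 (adjusted p 1.83e-07) and Cd79b differed by 0.09 ± 0.54 (adjusted p 0.935), with medians of -0.24 over the 8 genes and -0.02 over all probes. Spike-in scaling moved that all-probe median to 0.99 and called Cd79b (adjusted p 0.0378) and Ebf1 (1.44, adjusted p 0.00268) higher in GMP. Under it Pax5, which passed the filter only through Ter119, was at 1.72, given as a description. Ebf1 and Pax5 were each well above background on 1 of 3 GMP arrays and on no PreGM array. Tested directly, the erythroid step minus the myeloid step was -4.59 ± 0.77 for Cd79b (adjusted p 1.87e-04) and 5.72 ± 0.32 for Blnk (adjusted p 1.44e-09). Within slide 9, CFUe minus PreMegE was -5.60 for Cd79b and 2.53 for Blnk, and within slide 2, GMP minus PreGM was 0.19 and -2.92.

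Several of these values depended on CFUe replicate 3. Without it, Cd79b fell by 5.53 from PreMegE to CFUe, and Vpreb1 was also called lower, at -2.03 (adjusted p 6.37e-05) in place of -1.13 (adjusted p 0.0841). The granulocytic genes' summed level was 5.37 on that array and 2.43 and 2.57 on the other CFUe arrays, and their part in these values was not tested. Without GMP replicate 3, Cd22 was called lower in GMP than in PreGM, at -1.62 (adjusted p 0.00260).

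Of the 15 receptor signalling genes, which include enzymes, adaptors and surface receptors, 11 were lower in CFUe than in PreMegE and none higher, among them the kinase genes Syk, at -3.19 ± 0.25, and Lyn, at -1.73 ± 0.14, and Plcg2, which encodes the phospholipase downstream of Blnk, at -3.04 ± 0.23. Over all 48 other B lineage genes, 19 were lower and 3 higher, where 14.7% and 9.96% of all probes were called. Genes of other cells were called lower in the same comparison too, 5 of 11 granulocytic, 4 of 10 macrophage and 3 of 10 T cell genes, with 1 granulocytic and 1 T cell gene higher, and their part was not tested. The 48 genes gave 10 lower and 4 higher in PreGM against KLS, where 6.52% and 2.11% of all probes were called, and 9 lower and 3 higher in GMP against PreGM, where 6.36% and 4.01% were. In PreMegE against PreGM 16 were lower and 3 higher, beside 6.23% and 5.81% of probes, and in CFUe against GMP 18 were lower and 10 higher, beside 14.2% and 12.1%.

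Between branches at the same stage, PreMegE against PreGM called 1 of the 8 genes, with 12% of probes called, 5.81% higher and 6.23% lower, and with medians of 0.01 over the 8 genes and 0.03 over all probes. Blnk was lower in PreMegE by -3.44 ± 0.22 (adjusted p 5.98e-09), and within slides 2 and 3 the differences were -3.69 and -3.28. Cd79b was not called in the main fit, but a fit of only the 2 fractions called it lower (-1.24, adjusted p 0.00150). So did normexp background (-1.22, adjusted p 0.0122) and leaving out CFUe replicate 3 and PreGM replicate 3 (-1.17, adjusted p 6.76e-04). In CFUe against GMP, where 26.3% were called, 12.1% higher and 14.2% lower, Cd79b was lower by -5.82 ± 0.54 (adjusted p 9.47e-08) and Blnk higher by 2.28 ± 0.22 (adjusted p 1.76e-07), though by 0.90 and not called with spike-in scaling, with medians of 0.46 over the 8 genes and 0.22 over all probes. Vpreb3 was called higher in CFUe, at 1.34 ± 0.44 (adjusted p 0.0172), but not without CFUe replicate 3 (0.66, adjusted p 0.106) nor in a fit blocked on slide (1.56, adjusted p 0.111), and with spike-in scaling it turned to -0.04. That scaling called Vpreb1 (-1.69) and Cd22 (-1.07) lower, Cd22 with its sign turned and 1 of 3 GMP arrays well above background. Pax5, which passed the filter only through Ter119, was at -1.60 under it. No CFUe array and 1 of 3 GMP arrays were well above background for Pax5. Vpreb1 was called lower without that array, at -1.21 (adjusted p 0.00483).

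The 7 genes that passed the filter through fractions other than Ter119 were all called higher in Mac1Gr1 than in GMP, where 56.7% of probes were called either way, 29.1% higher and 27.6% lower. The median difference over the 8 genes was 3.69, against 0.17 over all probes. Vpreb3 rose most, by 6.73 ± 0.44 (adjusted p 3.05e-10), followed by Blnk at 5.57 ± 0.22 (adjusted p 6.01e-13), Cd22 at 4.93 ± 0.45 and Ebf1 at 4.40 ± 0.46. For Cd22 and Ebf1 only 1 of 3 GMP arrays was well above background, so the size of these differences is uncertain. Cd79a rose by 2.99 ± 0.28 and Vpreb1 by 2.21 ± 0.52. Cd79b, at 1.34 ± 0.54 (adjusted p 0.0339), lay near the threshold. Pax5 also differed by 1.34 ± 0.54, with 2 of 3 Mac1Gr1 and 1 of 3 GMP arrays well above background. In a fit blocked on slide, Vpreb1 (1.87, adjusted p 0.0715) and Cd79b (0.73, adjusted p 0.396) were not called, and the 2 fractions shared no slide. With spike-in scaling Cd79b and Pax5 turned to -0.69, Vpreb1 was at 0.17 and Cd79a at 0.95, none of them called. That scaling moved the median of all probes from 0.17 to -1.86, and 4 genes, Vpreb3, Ebf1, Cd22 and Blnk, were still called higher under it.

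**Figure D3:**
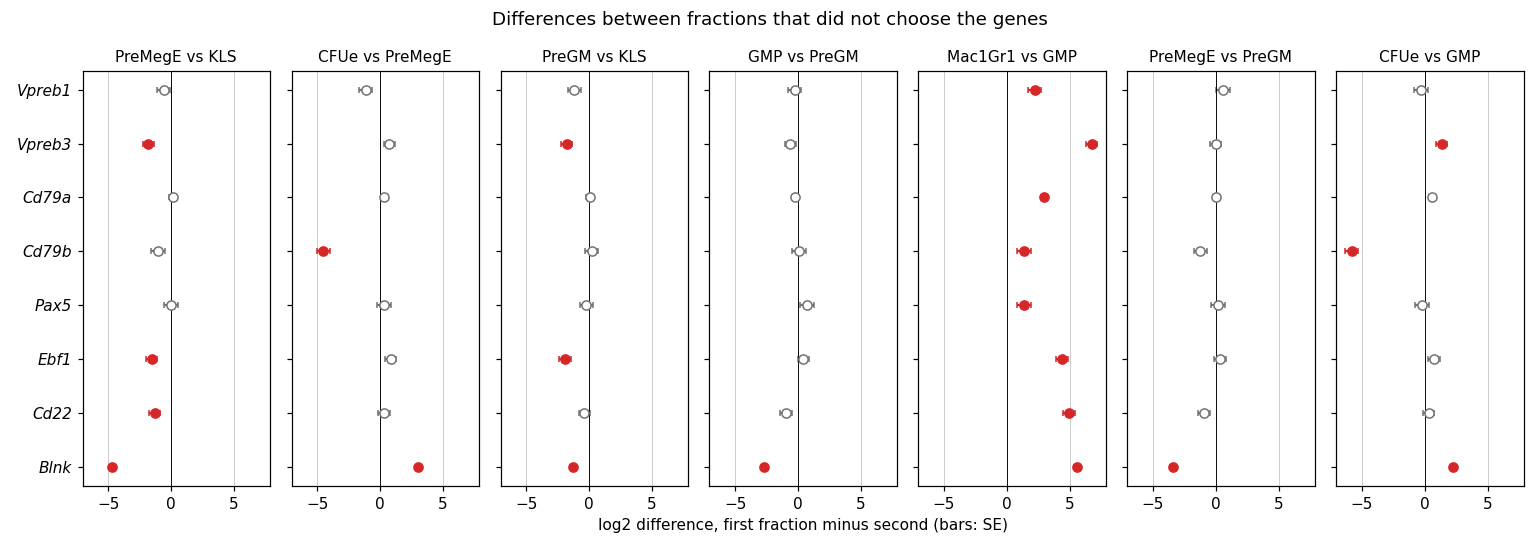
Log2 difference, first fraction minus second (x axis, bars are SE), of the 8 genes (y axis) in the 7 comparisons without Ter119. Filled red points passed an adjusted p under 0.05 with at least 2-fold, and open grey points did not. Pax5 passed the filter only through Ter119, so its points are a description. All 8 genes lie to the right of 0 in Mac1Gr1 against GMP, where Cd79b and Pax5 turn sign with spike-in scaling, and Cd79b and Blnk lie on opposite sides in CFUe against PreMegE.

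Other B lineage genes rose with them in Mac1Gr1, 37 of 48 tested with 4 lower. The cofactor gene Pou2af1 differed by 6.10 ± 0.25 and Ly6d by 7.56 ± 0.50, Ly6d with 2 of 3 GMP arrays well above background. Ms4a1, which encodes the surface protein CD20, had a mean of 2.93 in Mac1Gr1. Rag1, which cuts receptor genes for rearrangement, had a mean of -1.27 there. Neither Ms4a1 nor Rag1 was well above background on any GMP array, so the size of their differences is not given. The granulocytic list was higher in 8 of 11 genes and lower in 3, with a summed level of 12.36 to 12.52 in Mac1Gr1 and 10.01 to 10.16 in GMP. The macrophage list was higher in 8 of 10, from 3.81 to 3.92 in GMP to 4.89 to 5.05 in Mac1Gr1, and the T cell list in 3 of 10, from -0.08 to 0.75 to 2.79 to 3.12. Each macrophage marker was above background on some array of both fractions, and Cd28 was the T cell marker that was not. The part of other cells in the B cell values was not tested.

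Genes of the B lineage outside the 8 were also compared in Ter119. The lists were chosen with earlier results of these data known, so the counts are not an independent test. Some listed genes, such as Ms4a1 and Rag1, had 3 of 3 arrays well above background only in Ter119 and Mac1Gr1. Such genes passed the filter through fractions where they were high. Of 54 listed, 49 were matched to a probe and 48 tested. Against CFUe, 43 were higher and 2 lower, where 57.2% of probes were called either way, 29.2% higher and 28% lower, with a median difference of 4.35, or 4.07 with the 11 genes not above background in CFUe at their bounds, against 0.05 over all probes. Ms4a1 was at least 488-fold higher, Fcrla, an intracellular protein of B cells, at least 278-fold and Rag1 at least 59.4-fold. Spib, a B cell transcription factor gene, was higher by 9.20 ± 0.45. The 2 lower genes were Cd81, which encodes a tetraspanin, at -1.93 ± 0.10 and the factor gene Bcl11a at -2.55 ± 0.15.

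Against Mac1Gr1, 21 of the 48 were higher and 11 lower in Ter119, or 12 and 15 with spike-in scaling, with 41.9% of probes called, 22% higher and 19.9% lower. The factors were higher in 8 of 11 with none lower, among them Tcf3 at 1.85 ± 0.11, Foxo1 at 1.97 ± 0.17 and Pou2af1 at 2.18 ± 0.25. Early lymphoid genes were higher in 5 of 7, with Dntt at 2.69 ± 0.39, the interleukin 7 receptor gene Il7r at 2.73 ± 0.44 and Rag1 at 2.29 ± 0.27, while Bst1 was lower at -2.60 ± 0.48. Receptor signalling genes were lower in 8 of 15, among them Syk at -1.82 ± 0.25 and Ptpn6 at -1.89 ± 0.14, and higher in 2, Cd72 and Fcrla. Receptor parts were higher in 3 of 5 with none lower, and mature B genes higher in 3 of 10 and lower in 2. The T cell list was also higher, in 8 of 10 genes with none lower, though Cd28 was not above background in either fraction. The macrophage list was lower in 9 of 10 and higher in 1, and the granulocytic list higher in 2 of 11 and lower in 1. Their part in the B lineage values was not tested.

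Markers of other cells were also present in Ter119. The granulocytic list was higher than in CFUe in 11 of 11 genes, with a summed level of 12.20 to 12.53 in Ter119, 2.43 to 5.37 in CFUe and 12.36 to 12.52 in Mac1Gr1. The T cell list ran from 3.15 to 3.31 in Ter119 and 0.58 to 0.99 in CFUe, with 8 of 10 genes higher, Cd28 not above background in either and Cd3d not in CFUe. The macrophage list ran from 3.75 to 3.82 in Ter119 and from -1.10 to -0.26 in CFUe, with 9 of 10 higher, and C1qa, C1qc, Vcam1, Adgre1 and Mrc1 were not above background in CFUe. Erythroid genes summed to 12.31 to 12.73 in Ter119 and 6.48 to 6.67 in CFUe, with 7 of 11 called higher and 2 lower. All 11 matched erythroid genes were above background in both. The part of these cells in the B cell values was not tested.

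**Figure D4:**
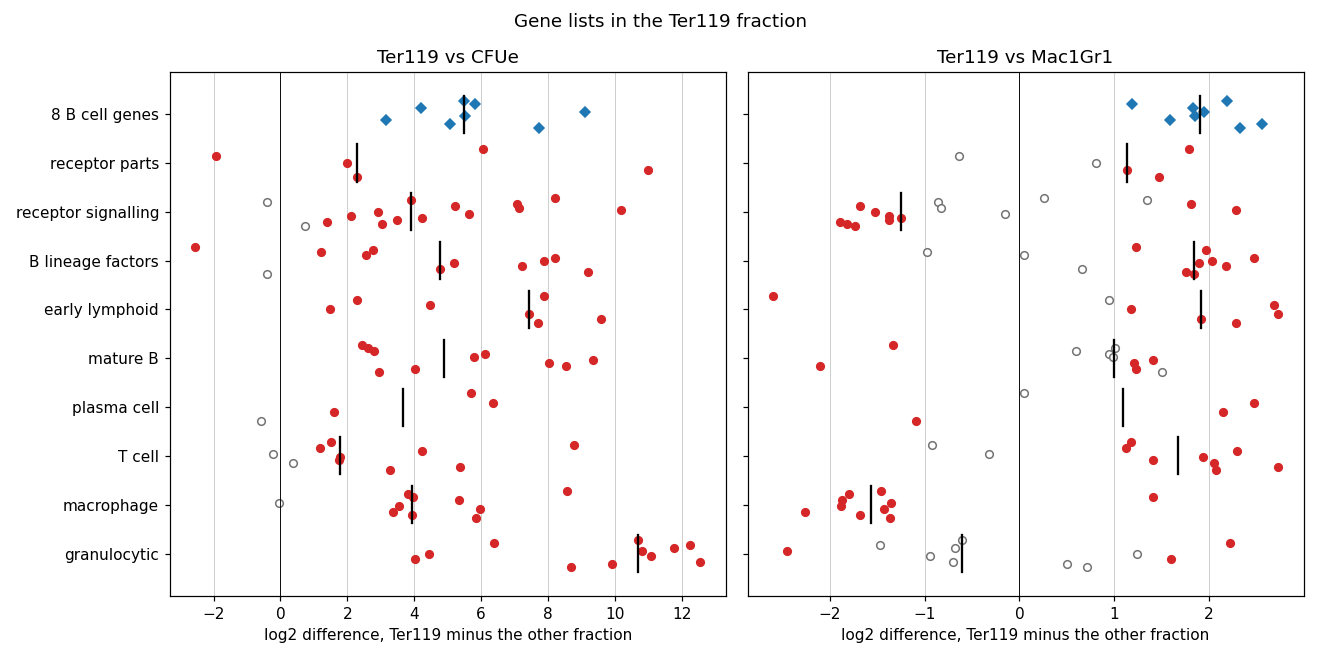
Log2 difference of Ter119 minus CFUe (left) and minus Mac1Gr1 (right) on the x axes, by gene list (y axis). Each point is a gene, the black line is the list's median, blue diamonds are the 8 genes chosen on Ter119 (no test), red points were called and open points were not. The 8 genes lie between 1.19 and 2.56 above Mac1Gr1, while receptor signalling genes lie mostly to the left of 0.

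The second probes gave the same order at the top. The other Vpreb3 probe was at 4.40 ± 0.42 (SD, n = 3) in Ter119 and 1.97 ± 0.47 in Mac1Gr1, and the other Cd22 probe at -1.04 ± 0.31 and -2.69 ± 0.13. Among 14200 genes outside the lists, the 10 whose level correlated best over the 21 arrays with the mean of the 8 genes were Cpm, Gimap3, Lynx1, Ube2b, Rsad2, Sema4b, Klhl25, Bcl2l14, Cacna1s and Akap12, with r from 0.97 to 0.98. Cpm, which encodes carboxypeptidase M, had a mean of -0.33 in Mac1Gr1 and between -5.67 and -4.28 in the progenitor fractions, and was highest in Ter119. Rsad2, an interferon-induced gene, had a mean of 6.78 in Ter119, 3.26 in Mac1Gr1 and between -1.33 and 0.29 in the progenitor fractions. The arrays share fractions and the 8 genes were chosen for their level in Ter119, which is among those arrays. That choice sets part of the profile, so the likeness is a description and no p is given.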

How the data were processed

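RNA of 7 sorted fractions, 3 samples each, was hybridised in 1 colour to Agilent 4x44K arrays. The deposited files hold processed signal intensity from Agilent Feature Extraction 10.7.1.1, background-corrected by the authors' scanner software, and the flags for well above background and outlier spots. The deposited series table holds log2 values, used as an alternative only; its scale and centring are not stated. Control and outlier spots (80 to 283 per array) were left out, spots of a probe averaged, and log2 intensity taken minus the 75th percentile of each array. No spot was saturated. Probes well above background were 56.4% to 77.4% per array, and the number of arrays limits the precision. RefSeq accessions named 26682 of 41174 probes.

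limma 3.58.1 in R 4.3.3 fitted all 21 arrays with a mean per fraction (14 residual degrees of freedom) to 29527 probes, with Benjamini-Hochberg adjustment. It was checked on simulated data. Named genes are those of the lists, the 10 most alike and other probes of the 8 genes. The genes and lists were chosen with earlier results of these data known. Slides held several fractions and were tried as a block. Ighm, Ighd, Igkc, Igll1 and Bach2 were not analysed here. Alternatives were scaling, background, filters, blocks, fold minimum, samples in the fit and arrays left out.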

Additional observations from a re-analysis of the deposited data

Results flagged for a closer look

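Cd79b and Blnk changed differently in the second step of the erythroid and myeloid branches, by a test of the difference itself. The erythroid step minus the myeloid step was -4.59 for Cd79b and 5.72 for Blnk on the log2 scale. For the other 6 genes the adjusted p was 0.105 or more, which does not show that the steps were alike.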

How the results depend on the processing

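Pax5 passed the filter only through Ter119, so its part in any count below is a description and not a call. Counts of called B cell genes, which do not show which genes, stayed within 1.5 times apart from these. With the slide as a block, PreMegE against KLS gave 1 in place of 4 and PreGM against KLS 0 in place of 3. Spike-in scaling gave 4 in place of 1 for GMP against PreGM, Pax5 counted, with Cd79b, Pax5 and Ebf1 added as higher. It gave 4 in place of 8 for Mac1Gr1 against GMP, with Pax5 held in the 8 as a description. Its medians for Ter119 against CFUe and Mac1Gr1 were 4.11 and 1.18 in place of 5.50 and 1.90. Normexp background gave 2 in place of 1 for PreMegE against PreGM and a Ter119 against CFUe median of 4.05. A fit of only those 2 fractions gave 2 for PreMegE against PreGM, as did leaving out CFUe replicate 3 and PreGM replicate 3 together, a setting chosen after seeing the data. Leaving out 1 array in turn gave 2 to 3 for PreMegE against KLS and 1 to 2 for GMP against PreGM. In CFUe against GMP spike-in scaling changed which genes were called, from 2 higher and 1 lower to 0 and 4, Pax5 counted. Signs turned with spike-in scaling for Cd79b (-0.69) and Pax5 (-0.69) in Mac1Gr1 against GMP, and Vpreb3 (-0.0397) and Cd22 (-1.07) in CFUe against GMP. The cause was not tested. Deviations of same-numbered samples had a median r of 0.0024 over 63 pairs, against 0.0076 over 126 pairs of different number. These medians cannot settle whether the numbers pair the samples, since single pairs ran from -0.43 to 0.37 for the same number. The replicate block gave 3 in place of 4 for PreMegE against KLS and the same counts elsewhere. Dim probes limit Pax5, Ebf1 and Cd22.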
